A study of Mus musculus with 12 samples.

Results

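The genes Vgll1, Sall3, Rgma and Lmcd1 were examined in leukaemic cells of LN3 mice, a model of T-cell acute lymphoblastic leukaemia (T-ALL), and in normal T-lineage cells. They are 4 of the 54351 genes of the count table. They were chosen by earlier results on these libraries, as genes that were near absent in wild-type (WT) T-lineage cells and present in leukaemic cells. Their difference between LN3 and WT is therefore given as a description, without a test.

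Poly(A) RNA was sequenced from 12 libraries in 4 groups of 3. The leukaemic groups were T-ALL cells from thymus (LN3 thymus) and from spleen (LN3 spleen) of overtly sick LN3 transgenic (LN3 tg) mice on the C57BL/6 strain. The control groups were total thymocytes (WT thymocytes) and spleen T cells enriched for CD8 by negative selection, with a stated purity of 85 to 95% (WT CD8 cells), from tumour-free C57BL/6J mice. Organs were dissociated mechanically in all groups, and the leukaemic cells and thymocytes were not sorted. Not given in the sources used here were the transgenes, the promoters that drive them, the ages of the mice and whether each library came from a separate animal. Each group mixed libraries with high and low Xist, the RNA of the inactive X, and so held libraries of different animals. Xist was at 1420 to 4025 CPM, defined below, in WT thymocytes 2, LN3 thymus 3, WT CD8 cells 2 and 3 and LN3 spleen 2 and 3. It was at 1.03 to 3.89 CPM in the other libraries. The p-values describe the spread among libraries, which may still be technical in part.

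Each of the genes is best known outside the T lineage. Vgll1 encodes a vestigial-like cofactor that has no DNA-binding domain of its own and binds TEAD transcription factors, the same partners that the Hippo pathway effectors Yap1 and Wwtr1 (TAZ) use, and it is known from trophoblast. Sall3 encodes a spalt-like zinc-finger transcription factor of the developing nervous system and limbs. Lmcd1 encodes a protein with LIM and cysteine-rich domains that binds GATA factors and is known from heart and skeletal muscle, where it has been linked to calcineurin and NFAT signalling. Rgma encodes a repulsive guidance molecule, a protein tethered to the cell surface that binds the receptor neogenin (Neo1) and acts as a co-receptor for bone morphogenetic proteins (BMPs).

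In GENCODE M21 on GRCm38, Vgll1 (ENSMUSG00000031131.11) lies on chromosome X from 57088106 to 57106540 on the plus strand. Rgma (ENSMUSG00000070509.15) lies on chromosome 7 from 73375509 to 73419899 on the plus strand, and Lmcd1 (ENSMUSG00000057604.9) on chromosome 6 from 112273758 to 112330425 on the plus strand.

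The promoters of Vgll1, the gene with the most uneven level among the LN3 libraries, and of Lmcd1, the gene with the most even level in LN3 spleen, are shown because both genes were near absent from WT libraries. They run from 250 bases before to 50 bases after the RefSeq start on GRCm38.p6, at chrX:57087856-57088155 and chr6:112273508-112273807, both on the plus strand. Capitals mark the motif letters found in either direction.
Vgll1 promoter: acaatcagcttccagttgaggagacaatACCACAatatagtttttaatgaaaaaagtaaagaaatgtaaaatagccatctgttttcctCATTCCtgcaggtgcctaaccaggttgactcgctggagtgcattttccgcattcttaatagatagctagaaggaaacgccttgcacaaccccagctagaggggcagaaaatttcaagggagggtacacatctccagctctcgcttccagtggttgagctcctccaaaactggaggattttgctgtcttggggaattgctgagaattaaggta
Lmcd1 promoter: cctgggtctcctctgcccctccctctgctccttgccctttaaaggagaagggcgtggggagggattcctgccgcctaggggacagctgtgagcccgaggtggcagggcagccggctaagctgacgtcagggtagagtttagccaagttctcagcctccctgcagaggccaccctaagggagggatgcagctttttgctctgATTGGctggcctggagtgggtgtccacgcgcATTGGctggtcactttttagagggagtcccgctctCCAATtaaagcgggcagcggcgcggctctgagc
Both strands were searched for the letters GGAATG for TEAD factors, TGTGGT for RUNX factors, TGGGAA for the Notch partner RBPJ, AGATAA for the zinc-finger factors of the GATA family, CACGTG for the factor MYC, the CCAAT box and the letters TATAAA of the TATA box. Positions count from the annotated start, with bases before it negative. The Vgll1 window held the TEAD letters, the motif of the partners of its own protein, on the minus strand with the first base at -162, and the RUNX letters on the minus strand at -222. The Lmcd1 window held the CCAAT box 3 times, at -49 and -18 on the minus strand and at 18 on the plus strand. Over 32851 RefSeq promoters of the same length, 14.7% held the TEAD letters, 16.8% the RUNX letters and 37.4% the CCAAT box. The shares for the motifs without a match here were 25.6% for RBPJ, 11.2% for GATA, 7.15% for MYC and 13.6% for the TATA box. The Vgll1 window was 43.7% GC with 4 CpG dinucleotides, below the medians of 52.7% and 7, and the Lmcd1 window was 62.0% GC with 12 CpG dinucleotides.

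Library totals ran from 12694571 to 42483898 counts, and a count of 3 equals 0.0657 to 0.262 CPM (counts per unit of library size, after TMM scaling of that size) in a library. Floors and intervals describe counting error alone, because reads carried no molecular identifiers and may repeat a molecule. Libraries also differed in the share of counts in 3 rows, CT010467.1, Mir6236 and Lars2. The share was 6.80 to 14.5% in 5 of 6 LN3 libraries and 7.71% in WT thymocytes 3, against 0.752% in LN3 thymus 1 and 1.12 to 2.33% in the other 5 WT libraries. In the spleen groups this split falls entirely between LN3 and WT, so the share and the genotype cannot be told apart there. T-cell markers had counts for 10 of 10 genes in each group, with sums of 2123 to 8507 CPM over all libraries.

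Vgll1 had no count in any WT thymocyte library. In LN3 thymus, libraries 1, 2 and 3 had 38, 2030 and 3506 counts, or 1.60, 167.9 and 98.7 CPM. In LN3 spleen, they had 1569, 3731 and 113 counts, or 136.8, 108 and 6.44 CPM, against 0, 1 and 2 counts in WT CD8 cells. Thus 4 LN3 libraries were near 100 CPM or above, 1 library of each organ was far lower, and no LN3 value overlapped a WT value. The means were 89.4 ± 83.6 CPM in LN3 thymus and 83.8 ± 68.5 CPM in LN3 spleen (SD, n = 3). From summed counts, the LN3 thymus level was at least 370.6-fold higher than that of WT thymocytes, taking the floor of 3 counts per library for the WT group. LN3 spleen stood 2713-fold above WT CD8 cells, with a 95% counting interval of 928 to 13160.

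Sall3 (ENSMUSG00000024565.9) lies on chromosome 18 from 80966376 to 80986771 on the minus strand. It had 70.9, 98.4 and 112.9 CPM in LN3 thymus 1, 2 and 3, from 1687, 1189 and 4010 counts. LN3 spleen had 25.9, 132.1 and 100.4 CPM, from 297, 4561 and 1763 counts. WT thymocytes had 1, 0 and 3 counts and WT CD8 cells 0, 2 and 6. LN3 spleen 1 was the low library for this zinc-finger gene, while the other 5 LN3 libraries lay close together. Summed counts gave ratios of 1030 (counting interval 402.1 to 3782) in the thymus and 1245 (631.3 to 2884) in the spleen.

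Lmcd1 had 57.96, 152.4 and 73.2 CPM in LN3 thymus (1380, 1842 and 2598 counts) and 136.3, 144.1 and 153.6 CPM in LN3 spleen (1563, 4976 and 2698 counts). WT thymocytes had 1, 1 and 4 counts and WT CD8 cells 0, 1 and 10, the highest count of any of the 4 genes in a WT library. The LN3 spleen libraries were nearly level, at 144.7 ± 8.69 CPM, and the LN3 thymus libraries more spread, at 94.5 ± 50.7 CPM. Ratios were 580.4 (266.5 to 1582) in the thymus and 1263 (705.4 to 2531) in the spleen.

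Rgma, the cell-surface gene of the group, had 101.8, 98.6 and 48.01 CPM in LN3 thymus (2423, 1192 and 1705 counts). It had 53.5, 36.5 and 43.1 CPM in LN3 spleen (614, 1259 and 756 counts). WT thymocytes had 3, 1 and 1 counts and WT CD8 cells 0, 3 and 1. Its lowest LN3 library was therefore still 236.9-fold above the highest WT library in the thymus and 384.1-fold in the spleen. Ratios of summed counts were 636.6 (272.6 to 1962) and 988.4 (385.6 to 3630). In these bulk samples, fewer cells that express a gene and less RNA of it per cell cannot be told apart.

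**Figure D1:**
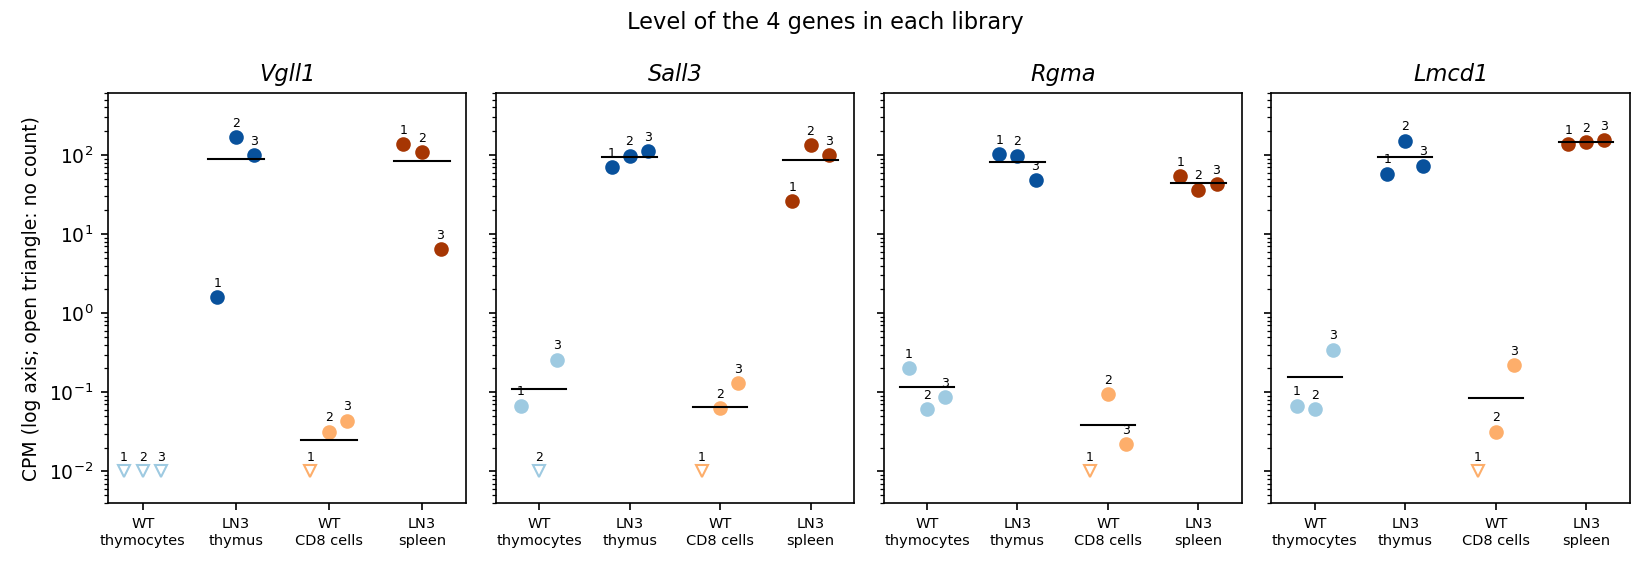
CPM of Vgll1, Sall3, Lmcd1 and Rgma in each library (log axis), with the library number above each point, the group mean as a line and open triangles for libraries without a count. The LN3 points lie above the WT points in every panel, and Vgll1 is low in LN3 thymus 1 (1.60 CPM) and LN3 spleen 3 (6.44 CPM).

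The share of counts in the 3 rows named above could be held alike only in the thymus. With 5% as the dividing value, LN3 thymus 2 and 3 compare with WT thymocytes 3 above it, and LN3 thymus 1 with WT thymocytes 1 and 2 below it. Above it, the LN3 and WT levels were 133.3 and 0 CPM for Vgll1, 105.6 and 0.258 for Sall3, 73.3 and 0.0860 for Rgma, and 112.8 and 0.344 for Lmcd1. Below it, they were 1.60 and 0 CPM for Vgll1, 70.9 and 0.0338 for Sall3, 101.8 and 0.132 for Rgma, and 57.96 and 0.0645 for Lmcd1. Since the genes were chosen as near absent in WT and present in LN3 libraries, these values are a description, and the part of the share in the levels was not tested.

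Per kilobase of the longest coding transcript, Lmcd1 had the highest level of the 4 genes in both leukaemic groups, at 54.6 ± 29.3 CPM per kilobase in LN3 thymus and 83.6 ± 5.02 in LN3 spleen (SD, n = 3). Vgll1 followed at 39.2 ± 36.6 and 36.7 ± 30.03. Rgma had 23.1 ± 8.41 and 12.4 ± 2.40, and Sall3 13.3 ± 3.02 and 12.2 ± 7.70. In LN3 thymus the ranges of mean ± SD overlapped for each pair of neighbours in this order, and in LN3 spleen for each pair but Lmcd1 and Vgll1.

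The difference between leukaemic spleen and leukaemic thymus was not used to choose the genes and was tested. In that contrast 151 of 20897 genes were called at an adjusted p below 0.05, or 0.723%, and none of the 4 genes was among them. Rgma had a log2 difference (spleen minus thymus) of -0.90 (SE 0.37, unadjusted p = 0.0318, adjusted p = 0.479). Lmcd1 had a log2 difference of 0.62 (SE 0.47, adjusted p = 0.816), Sall3 of -0.13 (SE 0.53, adjusted p = 0.970) and Vgll1 of -0.09 (SE 1.22, adjusted p = 0.994). The SE of Vgll1 is wide enough that a severalfold organ difference was not detectable with these libraries. Without LN3 thymus 1, edgeR called 0 of 21250 genes in this contrast, with 1214 at an unadjusted p below 0.05.

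The LN3 libraries differed in which gene was high. The highest library was LN3 thymus 2 for Vgll1, LN3 spleen 2 for Sall3, LN3 thymus 1 for Rgma and LN3 spleen 3 for Lmcd1. Vgll1 varied 105.2-fold between the highest and the lowest of the 6 LN3 libraries, Sall3 5.1-fold, Rgma 2.79-fold and Lmcd1 2.65-fold, beside a median of 1.87-fold over 9484 genes with a mean of 10 CPM or more in LN3. The coefficient of variation of Vgll1 was 79%, larger than that of 96.54% of those genes. It was 45.5% for Rgma, 41.4% for Sall3 and 35.6% for Lmcd1, against a median of 24.1%. Vgll1 is X-linked. Of its low libraries, LN3 thymus 1 had 2.14 CPM of Xist, the RNA of the inactive X, and 0.882 CPM of the Y-linked Eif2s3y, and LN3 spleen 3 had 2317 and 0 CPM. Among the libraries with more Vgll1, LN3 thymus 2 and LN3 spleen 1 had 3.89 and 1.31 CPM of Xist and 76.3 and 62.9 CPM of Eif2s3y. LN3 thymus 3 and LN3 spleen 2 had 3982 and 4025 CPM of Xist and 0.169 and 0.116 CPM of Eif2s3y. The part of X or Y dosage in the Vgll1 level was not tested.

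The off and on pattern was rare in the count table. Only 4 of 54351 rows (0.00736%) were below 0.5 CPM in each of the 6 WT libraries and at 10 CPM or more in each of the 6 LN3 libraries. They were Sall3, Rgma, Lmcd1 and the predicted gene Gm266, and no row had the reverse pattern. Since the genes were chosen for this pattern, nothing is read from the count. Gm266 had 81.1 to 266.3 CPM in LN3 and at most 0.131 CPM in WT libraries. Vgll1 fell outside through LN3 thymus 1 and LN3 spleen 3, although its highest WT value was 0.0438 CPM. Just inside the WT limit was Lmcd1, with a highest WT value of 0.344 CPM, and just outside were Adamts20 at 0.613 and Lgals7 and Exoc3l4 at 0.688. Just inside the LN3 limit was Sall3, with a lowest LN3 value of 25.9 CPM, and Lipg was just outside at 8.26.

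**Figure D2:**
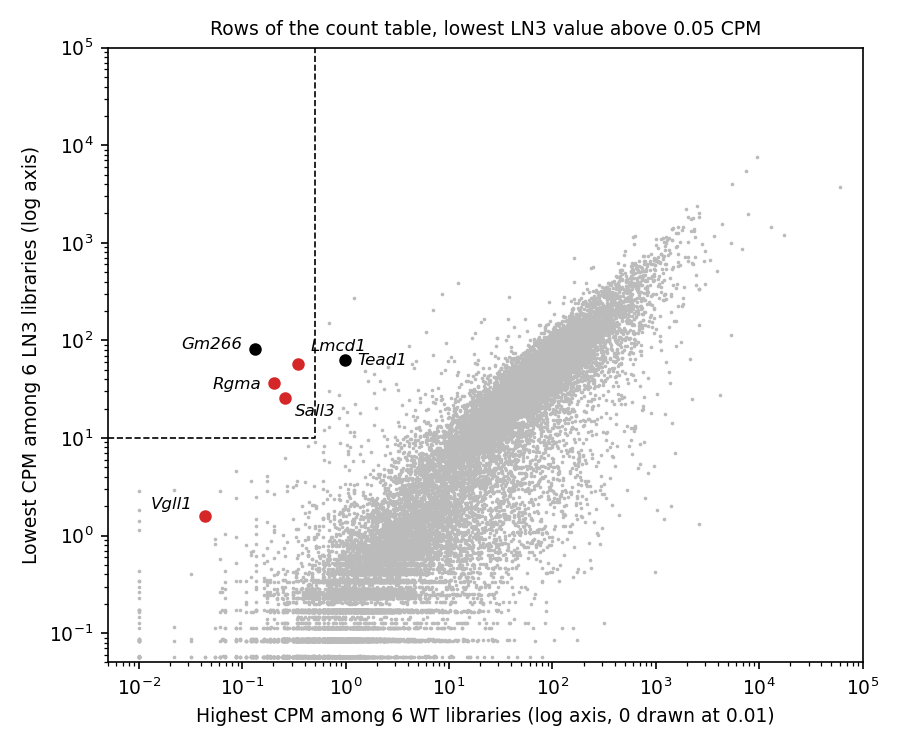
Lowest CPM among the 6 LN3 libraries against the highest among the 6 WT libraries for each row (both log axes), with the 4 genes in red and Gm266 and Tead1 in black. The dashed corner holds Sall3, Rgma, Lmcd1 and Gm266, Vgll1 lies below it at 1.60 CPM, and Tead1 to its right at 0.984 CPM in the highest WT library.

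The genes most like each of them over the 12 libraries were found by the Pearson correlation of log2 CPM, given as a description, since all such genes share the step between LN3 and WT. Sall3 and Lmcd1 had a correlation of 0.99, and Lmcd1 was the third most like Sall3. Over the 6 LN3 libraries alone their correlation was -0.02, and the other pairs of the 4 genes lay between -0.38 and 0.50. Wdr25 and Olfml3 were among the 5 genes most like both. The gene most like Rgma was 1700036A12Rik (0.99), and A730056A06Rik, the antisense gene inside Rgma, came next (0.99). For Vgll1 the first were Uri1 (0.97) and Batf2 (0.96), and for Lmcd1 Ttc32 (0.99).

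Transcripts annotated at the loci also had counts in LN3. A730056A06Rik, antisense to Rgma, had 6.43, 6.04 and 2.90 CPM in LN3 thymus and 3.14, 3.59 and 4.44 CPM in LN3 spleen, and 1 count in all WT libraries together. It was called higher in both organs, with log2 differences of 9.86 (SE 0.998, adjusted p = 0.000242; the size depends on the prior count, since WT thymocytes had no count) and 7.91 (SE 0.79, adjusted p = 8.3e-05). At Lmcd1, the antisense gene 5031434C07Rik had 93.8, 31.2 and 26.1 CPM in LN3 thymus and 10.7, 22.4 and 3.25 CPM in LN3 spleen, against at most 0.491 CPM in a WT library. Its log2 differences were 7.77 (SE 1.01, adjusted p = 0.000523) and 5.74 (SE 0.91, adjusted p = 0.000698). In LN3 thymus 1 it was thus above Lmcd1 itself, and in LN3 spleen 3 far below it. The libraries were made with a directional kit, but the strand setting of the counting is not given in the sources used here. Reads of a gene and its antisense partner therefore cannot be told apart. The calls of A730056A06Rik and 5031434C07Rik may repeat the difference for which the 4 genes were chosen, and nothing more is read from them.

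On the same strand, Gm44758 overlaps Rgma and Gm44193 overlaps Lmcd1. Both were called higher in LN3 in both organs, Gm44193 with log2 differences of 7.50 (adjusted p = 0.00139) and 4.37 (adjusted p = 0.00446). For Gm44758, also without a count in WT thymocytes, they were 8.995 (adjusted p = 0.00496) and 4.10 (adjusted p = 0.0162), the latter lost without LN3 spleen 2 (adjusted p = 0.0673). Strand cannot separate the reads of Gm44758 and Gm44193 from those of Rgma and Lmcd1. Their calls may thus repeat the difference for which the 4 genes were chosen, and nothing more is read from them. Gm44645, also on the same strand at the Rgma locus, had counts in each WT library, at 0.430 to 1.47 CPM, and 1.77 to 9.996 CPM in LN3 libraries. It was called higher in the thymus (log2 difference 2.51, adjusted p = 0.0270), a call lost in 7 of 20 alternatives (adjusted p = 0.0954 without LN3 thymus 1, 0.0888 without WT thymocytes 1), and had 1.20 in the spleen (adjusted p = 0.158). Gm27239, a noncoding RNA gene within 5 kb of Sall3 on the other strand, had 57 counts, all in LN3 libraries, and was too low to be tested.

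**Figure D3:**
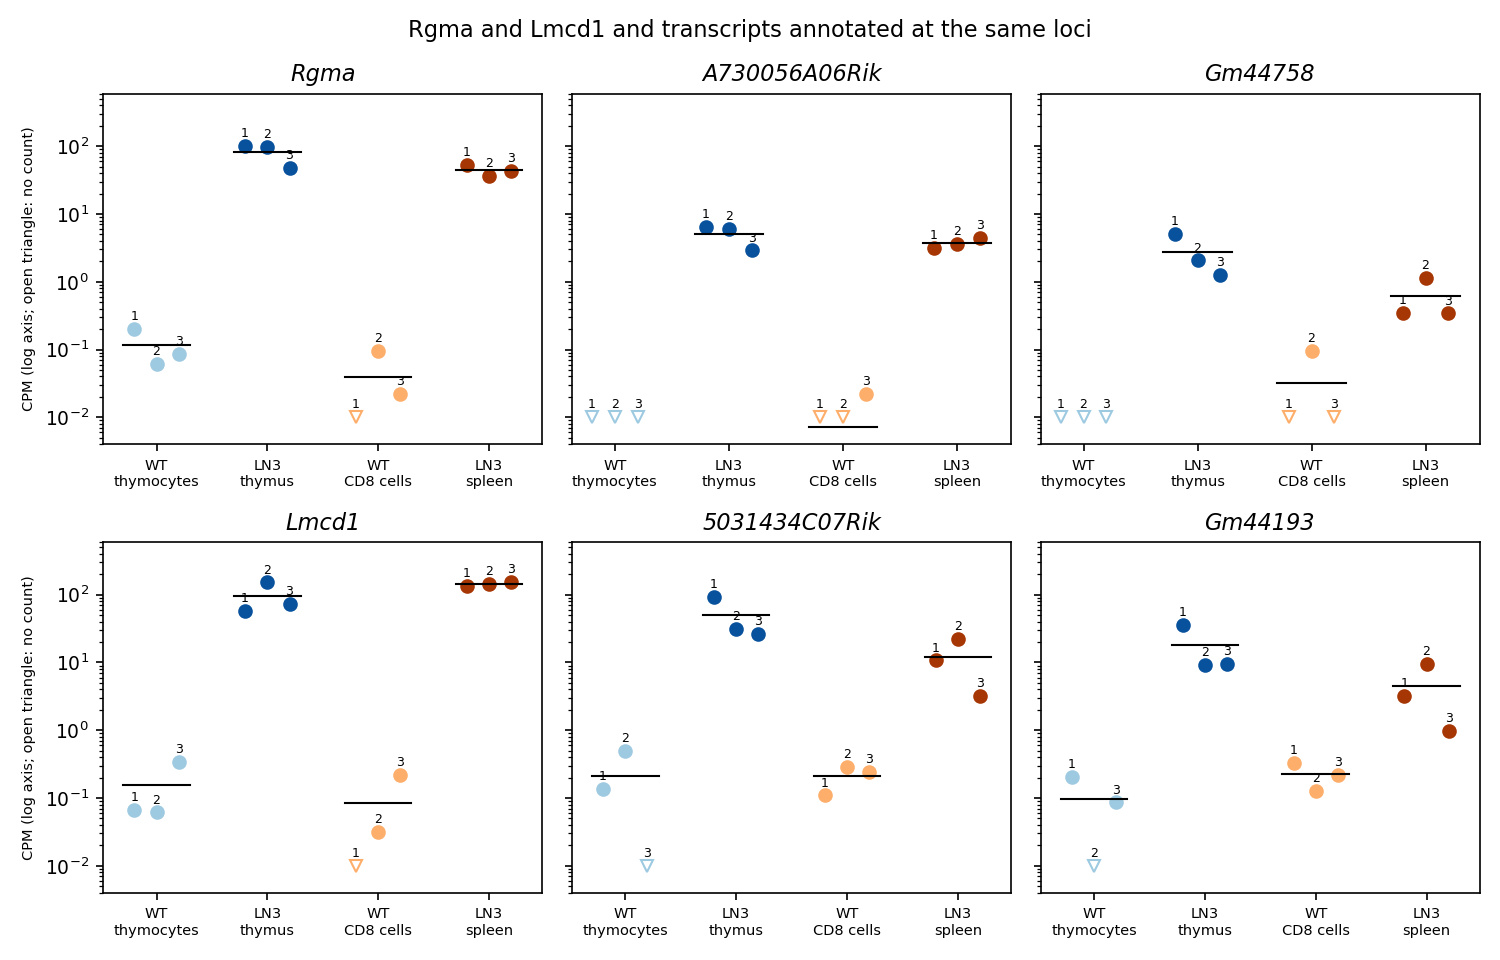
CPM in each library (log axis) of Rgma and Lmcd1, left, and of the antisense and same-strand transcripts that overlap them, with lines for group means and open triangles for libraries without a count. A730056A06Rik is lower than Rgma in each LN3 library, while 5031434C07Rik reaches 93.8 CPM in LN3 thymus 1.

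No neighbouring protein-coding gene met the limits of the off and on pattern. Htatsf1, 20.9 kb from Vgll1, was expressed in all groups, at 48.99 and 52.3 CPM in the WT groups and 87.8 and 99.1 CPM in the LN3 groups. Its log2 difference was 0.84 in the thymus (adjusted p = 0.0828) and 0.92 in the spleen (adjusted p = 0.0290), a call lost in 7 of 20 alternatives (adjusted p = 0.219 with library totals as scaling, 0.125 without LN3 spleen 3). Cd40lg, the CD40 ligand gene 105.6 kb on the other side, fell in LN3, from 9.52 to 0.0930 CPM in the thymus (log2 difference -6.66, adjusted p = 0.000332) and from 2.46 to 0.222 CPM in the spleen (-3.55, adjusted p = 0.00301). Chd2, a chromatin remodeller gene 6.7 kb from Rgma, had 178.9 CPM in WT thymocytes and 222.8 CPM in LN3 thymus (adjusted p = 0.546). Its level was 292.0 CPM in WT CD8 cells and 195.6 CPM in LN3 spleen (adjusted p = 0.133). Mctp2, 1068.9 kb from Rgma on the other side, was called lower in the spleen only (log2 difference -2.14, adjusted p = 0.00721). That call was lost in 1 of 20 alternatives, with the term for the share of counts in 3 rows (adjusted p = 0.123). The neighbours of Sall3 (Nfatc1, Atp9b, Galr1 and Mbp) held no call in either organ. Ssu2, 28.9 kb from Lmcd1, had no count in WT libraries and means of 0.476 and 0.251 CPM in LN3 thymus and spleen.

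The partners of Vgll1 were examined as a list of TEAD factors, their other cofactors and the Hippo kinases. Of 20 genes listed, 16 were tested, and 4 were called higher and 2 lower in LN3 thymus, with a median log2 difference of 0.38 beside -0.04 over all 20897 genes. In LN3 spleen 5 were higher and 3 lower, with a median of 0.19 beside -0.11. Over all genes tested, 6.06% were called higher and 5.21% lower in the thymus, and 17.9% higher and 13% lower in the spleen. Tead1, a DNA-binding partner of vestigial-like proteins, had 144.1, 80.2 and 117.8 CPM in LN3 thymus and 0.811, 0.982 and 0.344 CPM in WT thymocytes. In spleen it had 73.7, 121.4 and 62.4 CPM in LN3 and 0.984, 0.570 and 0.941 CPM in WT CD8 cells. It rose by log2 differences of 7.28 (SE 0.47, adjusted p = 3.64e-06) and 6.69 (SE 0.45, adjusted p = 1.66e-06), with no overlap between groups. In the libraries where Vgll1 was low, Tead1 had 144.1 CPM (LN3 thymus 1) and 62.4 CPM (LN3 spleen 3).

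Amotl1, an angiomotin that binds Yap1, rose from 1.58 to 81.8 CPM in the thymus (log2 difference 5.70, adjusted p = 5.15e-06) and from 0.704 to 51.9 CPM in the spleen (6.20, adjusted p = 1.21e-06). Tead3 rose by log2 differences of 1.57 (adjusted p = 0.0446) and 4.46 (adjusted p = 0.000101). The thymus call was lost in 13 of 20 alternatives (adjusted p = 0.152 without WT thymocytes 2, 0.118 without LN3 thymus 2). Amotl2 was called higher in the thymus (log2 difference 5.37, adjusted p = 0.0307), a call lost in 7 of 18 alternatives (adjusted p = 0.0822 with limma). Stk4, a Hippo kinase gene, fell by -0.87 (adjusted p = 0.0491) and -0.83 (adjusted p = 0.0300), calls lost in 14 and 8 of 20 alternatives. Lats2, a kinase that restrains Yap1, fell, with log2 differences of -3.66 (adjusted p = 0.000269) and -2.93 (adjusted p = 0.000311). Tead2 fell in the spleen (log2 difference -1.81, adjusted p = 0.00633) and had -1.27 in the thymus (adjusted p = 0.0668). Vgll4, the paralog that normal T cells also expressed, had 76.8 and 65.2 CPM in the WT groups and 65.3 and 55.7 CPM in the LN3 groups, with no call in either organ. Vgll2, Vgll3 and Tead4 were too low to be tested. Yap1, singled out after its values were seen, had 51.1 CPM in LN3 thymus 2 and 25.3 CPM in LN3 spleen 1 and 1.03 to 2.60 CPM in the other LN3 libraries, with WT libraries at 3.01 to 5.71 CPM.

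Genes known as TEAD targets in other tissues changed in both directions. Of 15 listed, 9 were tested, and 4 rose and 3 fell in LN3 thymus (median log2 difference 0.12), while 3 rose and 3 fell in LN3 spleen (median -0.65). Lats2 and Amotl2 are in both lists, and the thymus call of Amotl2 was lost in 7 of 18 alternatives. Arhgef17 rose by log2 differences of 3.90 (adjusted p = 0.000205) and 5.98 (adjusted p = 7.74e-06), and Ptpn14, a phosphatase gene, by 1.86 (adjusted p = 0.00763) and 5.53 (adjusted p = 7.13e-06). Crim1 fell, by log2 differences of -1.93 (adjusted p = 0.0381) and -3.99 (adjusted p = 0.000392), with the thymus call lost in 10 of 20 alternatives (adjusted p = 0.102 without LN3 thymus 1). Nt5e, the gene of the surface enzyme CD73, fell likewise, with -1.86 (adjusted p = 0.00891) and -3.40 (adjusted p = 9.57e-05). The thymus call of Nt5e was lost with only the groups of the contrast (adjusted p = 0.0625) and with the replicate block added to that (adjusted p = 0.230).

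Relatives and partners of Rgma changed in both directions. In the list of RGM, neogenin and BMP genes, 18 of 30 were tested. In the thymus 2 were higher and 3 lower (median log2 difference 0.00), and in the spleen 5 were higher and 4 lower (median 0.11). Neo1, the receptor of Rgma, had 26.6 CPM in LN3 thymus 2 and 14.7 CPM in LN3 spleen 1 and 0.114 to 0.591 CPM in the other 4 LN3 libraries, within or near the 0.0613 to 0.546 CPM of WT libraries. It was not called, with log2 differences of 5.06 (SE 1.98, adjusted p = 0.130) and 3.76 (SE 1.81, adjusted p = 0.128). In all, 4 of the 6 LN3 libraries thus had Rgma at 36.5 CPM or more with Neo1 below 1 CPM. Rgmb, the paralog of Rgma, fell in the spleen from 15.6 to 1.19 CPM (log2 difference -3.75, adjusted p = 0.000504). In the thymus it had -1.75, at the edge of the threshold (adjusted p = 0.0497, lost in 15 of 20 alternatives, with 0.159 without WT thymocytes 1). Bmp7, a BMP ligand gene, rose from 13.0 to 66.1 CPM in the thymus (2.35, adjusted p = 0.000940) and from 3.66 to 54.4 CPM in the spleen (3.90, adjusted p = 1.75e-05).

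Ntn1, the netrin gene whose product also binds neogenin, moved in opposite directions: it fell in the thymus (log2 difference -1.88, adjusted p = 0.0208, lost without LN3 thymus 2 at 0.0787) and rose in the spleen (3.16, adjusted p = 0.000769). The difference between the organs passed its own test (adjusted p = 0.00227), as it did for 4.19% of all genes tested. Arhgef12 rose in the thymus (3.62, adjusted p = 0.00276) and had 1.33 in the spleen (adjusted p = 0.0866). Smad7, an inhibitor of BMP and TGF-beta signalling, fell in the spleen from 102.6 to 6.50 CPM (-3.99, adjusted p = 0.00185). Of the same list, Id1 fell in the thymus (-2.855, adjusted p = 0.0435), a call lost in 10 of 20 alternatives. In the spleen Bmpr2 fell (-1.88, adjusted p = 0.0134) and Acvr2b rose (1.88, adjusted p = 0.00933), each call lost in 3 of 20 alternatives.

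**Figure D4:**
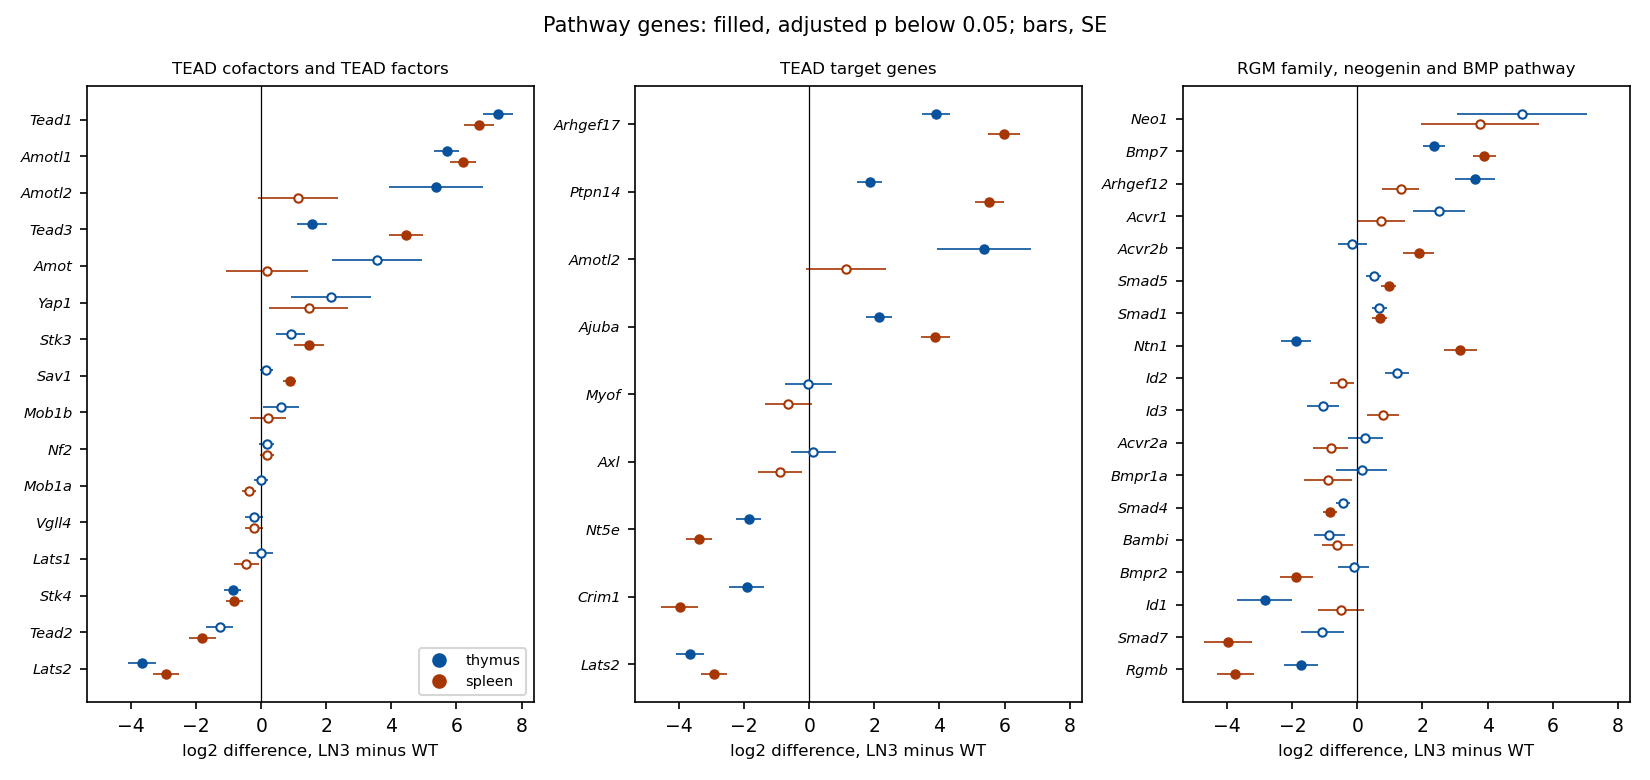
Log2 difference between LN3 and WT with its SE for the tested genes of the TEAD factor, TEAD target and RGM, neogenin and BMP lists, in thymus (blue) and spleen (orange), filled where the adjusted p was below 0.05. Tead1 (7.28 and 6.69) and Amotl1 (5.70 and 6.20) stand to the right in both organs, and Neo1 has wide bars and no call.

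Of 15 Sall family and early developmental regulators, 7 were tested, with 0 calls in LN3 thymus by edgeR and 1 higher and 1 lower in LN3 spleen. In the thymus 1 of the 7 had an unadjusted p below 0.05, limma called 0 and DESeq2 1, lower. Sall2 had 59.1 CPM in WT thymocytes, 54.4 CPM in LN3 thymus, 9.60 CPM in WT CD8 cells and 45.98 CPM in LN3 spleen. It rose in the spleen contrast (log2 difference 2.26, adjusted p = 0.000319) and had -0.12 in the thymus (adjusted p = 0.857), and the test of the difference between organs passed (adjusted p = 0.00833). Sall1 had 2.12 and 0.961 CPM in the WT groups and 0.700 and 0.578 CPM in the LN3 groups, without a call. Eya1 was the gene called lower in the spleen (log2 difference -2.36, adjusted p = 0.0314). That call was lost in 7 of 20 alternatives (adjusted p = 0.0838 with limma, 0.12 without LN3 spleen 3).

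For Lmcd1, 18 of 20 GATA factor and LIM domain genes were tested, with 0 higher (2 at an unadjusted p below 0.05, and 0 by DESeq2 and 1 by limma) and 1 lower in the thymus by edgeR and 4 higher and 1 lower in the spleen. Gata3, the GATA factor of T cells, had 89.7 and 162.0 CPM in WT and LN3 thymus (adjusted p = 0.111) and rose from 31.8 to 119.7 CPM in the spleen (1.91, adjusted p = 0.00112). Prickle1, a LIM domain gene of planar polarity, rose in the spleen from 3.001 to 43.7 CPM (3.86, adjusted p = 1.29e-05). Tes, whose product has the same kinds of domain as Lmcd1, fell in both organs (-2.61, adjusted p = 0.0433, and -2.68, adjusted p = 0.0183). The thymus call of Tes was lost in 9 of 20 alternatives (adjusted p = 0.146 without LN3 thymus 2), and its spleen call without the filter on low counts (adjusted p = 0.0883). Gata6, the GATA factor that Lmcd1 is known to bind, was too low to be tested, at 0.214 CPM or less on average in the LN3 groups.

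Of 11 tested calcineurin and NFAT genes, 0 were higher in LN3 thymus by edgeR, DESeq2 or limma (1 at an unadjusted p below 0.05) and 2 lower, and 2 were higher and 3 lower in LN3 spleen. Ppp3ca, a catalytic subunit gene of calcineurin, fell from 22.7 to 3.41 CPM in the thymus (-2.73, adjusted p = 0.000304) and from 86.03 to 18.7 CPM in the spleen (-2.21, adjusted p = 0.000361). Rcan1, a calcineurin inhibitor gene, rose in the spleen (1.41, adjusted p = 0.0112). That call was lost without WT CD8 cells 1 (adjusted p = 0.0537) and with the term for the share of counts in 3 rows (adjusted p = 0.286). The other gene called higher there, Ppp3r1, was at the edge of the threshold (0.66, adjusted p = 0.0497). Its call was lost in 15 of 20 alternatives.

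Markers of cells in which the 4 genes are usually found were measured beside them. Muscle markers summed to 10.6 to 16.2 CPM in LN3 libraries and 7.12 to 21.1 CPM in WT libraries, with Actc1 without a count in any group. Neural and glial markers summed to 17.4 to 49.1 CPM in LN3 and 8.51 to 14.2 CPM in WT libraries, with counts for 10 and 9 of 10 markers in LN3 thymus and spleen. Of 6 tested, 2 were called higher and 0 lower in the thymus, and 1 higher and 0 lower in the spleen. Trophoblast markers summed to 3.81 to 10.6 CPM in LN3, with Cdx2 and Prl3d1 without a count, and Vgll1 alone exceeded the summed list in 5 of 6 LN3 libraries. WT CD8 cells had 95.3 to 115.8 CPM of that list, led by Eomes, which CD8 T cells also express. Fibroblast and mesenchymal markers summed to 446.2 to 925.5 CPM in LN3 and 6.17 to 47.6 CPM in WT libraries, with counts for 12 of 12 markers in each group. Of 9 tested, 3 were called higher and 0 lower in the thymus, and 4 higher and 0 lower in the spleen. Pdgfrb made up 302.1 to 759.8 CPM of the LN3 sums, and without it the sums were 92.8 to 384.9 CPM in LN3 and 4.64 to 39.1 CPM in WT libraries. Fbln1 was the next highest marker, with a mean of 54.5 CPM over the 12 libraries. Erythroid markers, with counts for 8 of 8 in each group, summed to 1922 to 6480 CPM in LN3 spleen and 39.6 to 701.4 CPM in WT CD8 cells, and to 9.66 to 142.7 CPM in LN3 thymus and 14.05 to 3937 CPM in WT thymocytes. In LN3 spleen 4 of the 8 were called higher than in WT CD8 cells, and 4 higher than in LN3 thymus. Myeloid and dendritic markers summed to 230.6 to 3018 CPM in WT CD8 cells and 285.2 to 1424 CPM in LN3 spleen. The sum of 3018 CPM was in WT CD8 cells 2, whose T-cell markers summed to 2123 CPM. B-cell markers summed to 499.5 to 1431 CPM in WT CD8 cells and 286.2 to 2147 CPM in LN3 spleen. The part of these marker lists in the levels of the 4 genes was not tested.

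**Figure D5:**
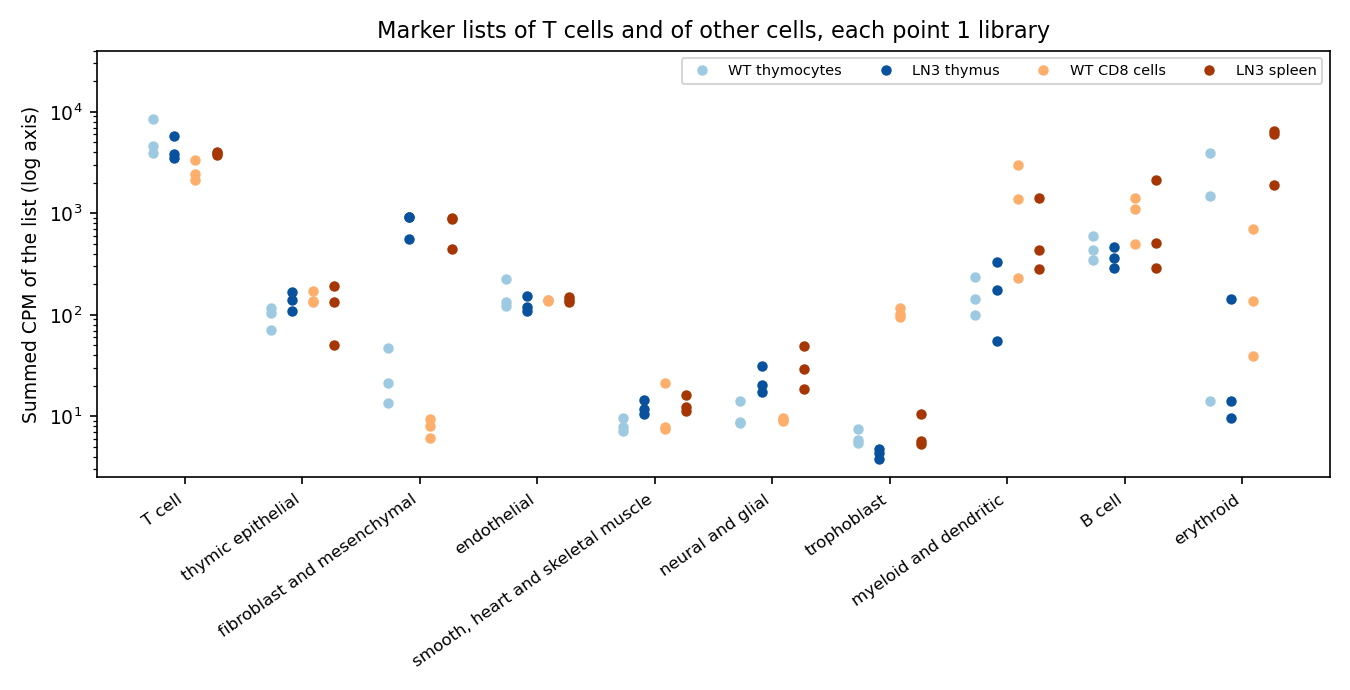
Summed CPM of each marker list in each library (log axis), coloured by group. The fibroblast and mesenchymal list separates LN3 (446.2 to 925.5 CPM) from WT libraries (6.17 to 47.6 CPM). The neural and glial list does so at lower levels (17.4 to 49.1 and 8.51 to 14.2 CPM). The T-cell list is at 2123 CPM or more in all groups.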

How the data were processed

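Poly(A) RNA libraries of 4 groups of 3 were compared. Per the submitters' processing notes, the authors used kallisto 0.46.1, FastQC, DESeq2 and genome build GRCm38. Not given in the sources used here were the annotation release and strand setting. The authors deposited estimated counts per gene, of which 100% of 652212 values were already whole (rounding was applied anyway), and variance-stabilized values on a log2 scale, used in an alternative and for likeness only. All columns were assigned to a sample by name.

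Of 54351 genes, 20897 passed filterByExpr and were fitted with edgeR 4.0.16 in R 4.3.3: TMM scaling, 4 group means over 12 libraries (8 residual degrees of freedom), robust dispersions, quasi-likelihood tests and Benjamini-Hochberg adjustment over all genes tested, called below 0.05. The SE of a log2 difference is its size divided by the square root of the test's F. The procedure was tested on simulated data. Log2 differences are LN3 minus WT, or spleen minus thymus, and are fitted values; for genes with no WT count they depend on the prior count. Ratios of the 4 genes divide summed counts by summed scaled totals, with 95% counting intervals. Alternatives used limma 3.58.1, DESeq2 1.42.0, other scalings, no filter, left-out libraries, a replicate block and a term for the share of counts in 3 rows. That term and the dividing value of 5% were chosen after the data were seen.

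The 4 genes and all lists were chosen with earlier results of these data known. The genes set to be named were the 4 genes, their paralogs, Tead1 to Tead4, Neo1 and 2 protein-coding neighbours on each side. To these came up to 3 called genes of each pathway list per direction and contrast, with the largest change. The 5 genes most like each gene, the genes of the off and on pattern and the 2 highest genes of each marker list were also set. Not all of them are given here. Genes that overlap or lie within 5 kb of the 4 genes, the rows next to the pattern limits, Yap1 and Gata6 were added after their values were seen. Gene positions come from GENCODE M21, matched by symbol for 98.94% of rows, and promoters from RefSeq. Of the 4 promoters, that of Rgma was not used here and that of Sall3 is not reported here. In the lists, 3 of 220 list entries matched through an older symbol.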

Additional observations from a re-analysis of the deposited data

Results flagged for a closer look

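By the test of the difference of the 2 contrasts (spleen minus thymus, edgeR), the effect of LN3 differed between the organs in 4.19% of all genes tested. It differed in 6 of the 40 tested genes named for the pathways of the 4 genes or at and near their loci. Some of these genes were named for a large change in 1 organ, so nothing is read from the count. The difference was 5.04 on the log2 scale for Ntn1 (adjusted p = 0.00227), 3.68 for Ptpn14 (adjusted p = 0.00339) and 3.36 for Prickle1 (adjusted p = 0.00174). It was 2.89 for Tead3 (adjusted p = 0.0272) and 2.38 for Sall2 (adjusted p = 0.00833). For Ppp3cc, a calcineurin catalytic subunit gene, it was -1.90 (adjusted p = 0.0143), with log2 differences of -0.43 in the thymus and -2.34 in the spleen. The control cells of the organs differ, and what part they have in these differences was not tested.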

How the results depend on the processing

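With 3 libraries per group, precision is limited by their number. The main fit called 1266 genes higher and 1088 lower in the thymus and 3740 and 2713 in the spleen. In the thymus, 811 and 668 were called with only the groups of the contrast, 562 to 1652 and 641 to 1122 without a library in turn, and 1649 (library totals) and 1664 (DESeq2) were lower. In the spleen, the term for the share of counts in 3 rows gave 1519 and 1319, and leaving out a library 2416 to 4749 and 1430 to 3833. Between LN3 spleen and LN3 thymus, 43 (library totals), 645 (DESeq2), 41 (term for 3 rows) and 0 to 255 genes (without a library, the lowest without LN3 thymus 1) were called, beside 151. The organ difference gave 1738 (DESeq2) and 463 to 880 (without a library), beside 875. Of all calls, 53.78% were higher in the thymus and 57.96% in the spleen, 38.24% and 40.02% with library totals, and 41.2% and 41.68% with upper-quartile factors. Library totals moved the median of all genes to -0.24 and -0.51.

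For the 4 genes, spleen minus thymus turned sign for Vgll1 with limma on variance-stabilized values (0.65), and ranged from -0.66 to 0.74 without a library (0.74 without LN3 thymus 2, 0.45 without LN3 spleen 3). For Sall3 it ranged from -0.57 to 0.31 (0.03 without LN3 thymus 3, 0.31 without LN3 spleen 1). Rgma ranged from -1.18 to -0.71 and Lmcd1 from 0.37 to 1.15. No alternative called any of the 4. The pattern held 1 gene (Gm266) with a WT limit of 0.2 CPM, 12 with 1 CPM, and 4 to 7 without a library, 7 without WT thymocytes 3. Of the 5 genes most like Vgll1, 2 stayed with a prior count of 0.5 and 1 with variance-stabilized values; for Sall3 3 stayed with the latter and for Rgma 2 with the former. Of 1196 alternatives over 60 calls of other named genes, 144 ended a call and 0 reversed one.

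With the replicate number as a block and only the groups of the contrast, which alone gave 811 and 668, 482 genes were higher and 394 lower in the thymus, and the spleen minus thymus difference was -0.25 for Vgll1, -0.40 for Sall3, -0.85 for Rgma and 0.74 for Lmcd1. Deviations of same-numbered LN3 thymus and spleen libraries correlated at -0.15, -0.53 and -0.04 over genes, and 0 of 3 correlated best with its own number, so the numbers were not taken as pairs and nothing was crossed. The highest correlations were 0.46 for LN3 thymus 2 with LN3 spleen 1 (Xist at 3.89 and 1.31 CPM) and 0.43 for LN3 thymus 3 with LN3 spleen 2 (3982 and 4025 CPM). The term for 3 rows, chosen after seeing the data, ended the spleen calls of Bmpr2 (adjusted p = 0.528), Rcan1 (adjusted p = 0.286), Mctp2 (adjusted p = 0.123), Lmo4 (adjusted p = 0.107) and Acvr2b (adjusted p = 0.0945). It also ended those of Eya1 (adjusted p = 0.595), Ppp3r1 (adjusted p = 0.24) and Htatsf1 (adjusted p = 0.122). In the thymus it ended the calls of Tead3 (adjusted p = 0.0593) and Rgmb (adjusted p = 0.0502). The causes were not tested.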
